A study of Mus musculus with 8 samples.

Results

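AP-1 is a family of paired transcription factors, and 10 of its subunit genes were followed here in mouse CD8+ T cells with and without the ETS family gene Elf4: Jun, Junb, Jund, Fos, Fosb, Fosl1, Fosl2, Batf, Batf3 and Atf3. They were chosen by name, as the probe sets that the platform's annotation gives to one of these genes alone. This took 14 of the 45101 probe sets on the array, for 10 of 18193 named genes: 2 each for Jun, Jund, Fosl1 and Fosl2 and 1 for each other gene. Of the 14, 13 were bright enough to be tested, the exception being the dimmer Fosl1 probe set, which read 3.85 to 91.7 on the 8 arrays.

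AP-1 proteins bind DNA as dimers through a basic region and a leucine zipper. A Jun protein pairs with itself, with a Fos protein or with a Batf or Atf protein, while Fos and Batf proteins need a partner. Jun, Fos, Fosb, Junb and Atf3 are textbook immediate early genes, transcribed within minutes of a stimulus or of cell stress. In T cells, Jun and Fos act with NFAT at cytokine genes such as Il2, and Batf with Jun proteins and IRF4 at effector genes.

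The cells were CD8+ T cells purified from mouse spleen, from wild-type C57BL/6 mice or from mice labelled Elf4-/- KO. How the knockout allele was made, its strain background and the animals' age and sex are not given in the sources used here. Naive cells were left unstimulated. Activated cells had spent 3.5 days on plates coated with anti-CD3, with anti-CD28 added in solution. Each of the 4 groups had 2 arrays, and the labels do not say whether the pair came from different mice or cultures. The p-values here therefore rest on the spread of these arrays alone, which may be technical. A value is a linear intensity from the authors' table. A difference is in log2(intensity + 16) from a limma fit to all 8 arrays, called where the p-value adjusted over 27348 probe sets was under 0.05.

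Both Elf4 probe sets were dim and neither passed by genotype (adjusted p from 0.373 to 0.891). The dimmer one read 32.4 and 9.37 in naive wild-type cells against 77.6 and 58.2 in the samples labelled knockout, higher without overlap, and 112 and 58.5 against 1.92 and 26.1 in activated cells, lower without overlap. The brighter one overlapped in naive cells (116 and 199 against 165 and 192) and was lower in activated knockout cells (83.6 and 134 against 76.2 and 80.6). The genotype labels were therefore not checked by this gene. Whether they lie in the deleted part was not analysed here. The defining CD8 gene Cd8a read 17150 and 16424 on naive wild-type arrays against 14240 and 14897 on naive knockout arrays, lower without overlap. On activated arrays it read 6290 and 5421 against 4288 and 4397, again lower without overlap, and Cd4 ranged from 18.0 to 43.1. Summed over 7 CD8 T cell markers, the naive intensity was 114674 and 107252 against 95526 and 87948, and 0 of the 7 passed. Cd3e, of the same list, was higher in the naive knockout (3588 and 3364 against 4851 and 3757). The naive knockout arrays also held more signal of some markers of other cells. Summed over 9 granulocyte markers the intensity was 505 and 880 on naive wild-type arrays, against 4714 and 19596 on naive knockout arrays, and 4 of the 9 passed. The sum over 4 NK cell markers was 2184 and 1545 against 3869 and 4252 (1 of 3 tested passed), over 8 macrophage and monocyte markers 2005 and 2449 against 3516 and 5872 (0 of 6 tested passed), and over 5 plasma cell markers 5385 and 4760 against 14696 and 24245 (1 of 5 passed). Eomes made up most of the NK sum (2027 and 1225 against 2814 and 3132), with Klra8 at 62.1 and 126 against 664 and 588. Ncr1 was under the array medians on all 8 arrays. The plasma cell difference lay mostly in Igha (330 and 149 against 9201 and 16831). Xbp1, of the same list, read 3796 and 3872 against 4018 and 3536. The sum over 7 B cell markers overlapped (30112 and 27665 against 22401 and 28930), and 0 of the 7 passed. Ighm made up most of this sum and was lower in the knockout (25469 and 23957 against 18632 and 18897). Each other marker of this list was highest, among the naive arrays, on knockout naive replicate 2. For example, Cd22 read 940 and 601 against 864 and 2894, and Ms4a1 1262 and 965 against 1072 and 2468. None of these markers was at 0. The state was tied to other features: Xist was at 60.3 to 172 in naive and at 7703 to 10011 in activated samples, the Y-linked Eif2s3y at 2537 to 5146 and at 2.93 to 44.0, and the ratio of the 3' to the 5' Actb signal, a measure of RNA integrity, was 1.96 to 2.5 and 5.9 to 11.1. Activation, sex and RNA integrity cannot be told apart in these data.

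The promoters of 4 members are shown because Jun, Junb and Fos are the genes that moved together in the comparisons below, while Atf3 went the other way on activation. Each window runs from 250 bases before to 50 after the RefSeq start in GRCm38.p6, read 5′ to 3′ on the gene's strand: Jun chr4:95052173-95052472 (minus), Junb chr8:84978699-84978998 (minus), Fos chr12:85473640-85473939 (plus) and Atf3 chr1:191183284-191183583 (minus). Capitals mark matches to TGACG, the core of a cyclic AMP response element, and to TGACNTCA, on either strand.
Jun: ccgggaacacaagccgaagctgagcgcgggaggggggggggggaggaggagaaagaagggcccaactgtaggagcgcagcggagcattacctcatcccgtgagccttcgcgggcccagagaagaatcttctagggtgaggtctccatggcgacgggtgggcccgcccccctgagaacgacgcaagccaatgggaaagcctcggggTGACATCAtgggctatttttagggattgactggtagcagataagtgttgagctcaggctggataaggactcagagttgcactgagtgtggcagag
Junb: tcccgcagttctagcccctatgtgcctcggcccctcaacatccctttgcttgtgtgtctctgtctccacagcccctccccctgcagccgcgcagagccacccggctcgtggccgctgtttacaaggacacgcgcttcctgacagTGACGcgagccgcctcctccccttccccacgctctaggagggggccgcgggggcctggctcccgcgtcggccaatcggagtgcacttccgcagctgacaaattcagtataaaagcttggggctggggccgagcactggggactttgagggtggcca
Fos: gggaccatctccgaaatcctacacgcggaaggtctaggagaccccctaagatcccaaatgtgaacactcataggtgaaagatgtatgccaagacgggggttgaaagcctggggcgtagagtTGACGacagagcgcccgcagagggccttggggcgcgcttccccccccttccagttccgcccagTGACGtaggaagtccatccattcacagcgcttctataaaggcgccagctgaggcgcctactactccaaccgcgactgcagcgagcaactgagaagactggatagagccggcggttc
Atf3: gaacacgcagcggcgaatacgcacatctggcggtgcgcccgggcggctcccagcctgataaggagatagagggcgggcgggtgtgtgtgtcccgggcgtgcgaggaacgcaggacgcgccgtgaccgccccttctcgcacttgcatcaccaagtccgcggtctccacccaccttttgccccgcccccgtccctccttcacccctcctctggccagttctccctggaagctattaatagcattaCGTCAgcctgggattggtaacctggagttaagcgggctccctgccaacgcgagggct
RefSeq windows were at hand for 9 of the 10 genes, and Fosl1 had none. The classical AP-1 element TGACTCA was in 0 of the 9, against 5.2% of 32851 windows of all genes, and the full response element TGACGTCA in 0 against 1.79%. The CArG box, the site of serum response factor, was in 0 against 1.63%. CCGGAA, an extended form of the ETS site, was in 1, that of Batf, against 14.9%. The shorter GGAA, which other ETS sites hold too, was not searched. Sites more than 250 bases before the start lay outside the windows, for Fos and the other genes alike. The search for TGACG and TGACNTCA was added after the sequences were seen, and a TGACGTCA would have matched both. This core was in 5 of the 9 (Junb, Fos, Fosb, Batf and Atf3) against 20.8%, and TGACNTCA in 1, Jun, against 8.83%. In Jun it read TGACATCA at −45 to −38 from the start. In Fos the core stood at −129 to −125 and −66 to −62, in Junb at −106 to −102 and in Atf3, on the other strand, at −7 to −3. These matches describe letters in the windows and no binding was measured. Along the chromosomes, Batf3 and Atf3 on chromosome 1 were separated by 1 protein-coding gene, Fam71a, and Fos and Batf on chromosome 12 by 1, which is Jdp2, itself an AP-1 family gene.

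The first comparison asks whether AP-1 transcripts differ by genotype in unstimulated cells. Transcripts of Jun, Junb and Fos were lower in the knockout. Jun showed the largest of these differences, with a mean 4.65-fold lower. Of the 13 tested probe sets 4 were called lower (Jun on both of its probe sets, Junb and Fos) and 0 higher, against 0.249% of all 27348 tested probe sets called lower and 0.314% called higher. The estimate was below 0 for 12 of the 13, also with quantile normalization or after centring arrays on their medians (the median over all tested probe sets was then 0.10), and their median was −1.05 beside −0.00 over all tested probe sets. Array values of the genotypes did not overlap for 8 of the 13, each time lower in the knockout, where 19.8% of all tested probe sets had this pattern. In bulk RNA, fewer cells of a type and less RNA per cell cannot be told apart.

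Jun encodes the subunit that is the usual partner of Fos. Its brighter probe set gave 6164 and 5166 on the naive wild-type arrays, but 1456 and 979 on the knockout ones. Both knockout arrays lay far under both wild-type arrays, a 4.65-fold gap between means of 5665 ± 706 and 1217 ± 337 (SD, n = 2). The difference was −2.23 (SE 0.24, adjusted p = 0.0058). The dimmer Jun probe set read 1692 and 1798 against 761 and 561, again without overlap, and fell by 1.40 (SE 0.22, adjusted p = 0.026).

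Junb, whose product opposes or replaces Jun at many targets, gave 3411 and 5108 on the naive wild-type arrays and 1754 and 1027 on the knockout ones. The groups did not overlap, and the means, 4259 ± 1200 and 1391 ± 513 (SD, n = 2), were 3.06-fold apart. The difference was −1.62 (SE 0.27, adjusted p = 0.0301). Jund, the Jun gene known for steady expression in resting cells, read 7824 and 16130 against 11394 and 6746 on its brighter probe set. These values overlapped, and the difference of −0.36 did not pass (95% interval −1.02 to 0.31, adjusted p = 0.709). Its dimmer probe set, which read 23.2 to 130 over the 8 arrays, gave −0.72 (adjusted p = 0.676).

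Fos was the family's other early subunit to fall. Naive wild-type arrays gave 24169 and 29039, and the knockout arrays 13860 and 10744. The lowest wild-type array thus lay above the highest knockout array, with means 2.16-fold apart (26604 ± 3443 and 12302 ± 2203, SD, n = 2). The difference was −1.12 (SE 0.16, adjusted p = 0.0171). Fosb, a close relative of Fos, read 284 and 575 against 161 and 55.8, without overlap but with a wide spread, and its difference of −1.90 did not pass (95% interval −3.38 to −0.42, adjusted p = 0.292). Fosl1 and Fosl2 encode the Fos-related antigens Fra-1 and Fra-2, which lack the strong activation domain of Fos. Fosl1 was dim, at 56.4 and 89.4 against 13.1 and 46.3 (difference −1.04, adjusted p = 0.437). Fosl2 read 342 and 531 against 410 and 509 on its brighter probe set (0.09, adjusted p = 0.931) and 28.5 and 178 against 16.3 and 46.5 on its dimmer one (−1.05, adjusted p = 0.565), so its probe sets went different ways and neither passed.

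Atf3, which encodes a stress-induced factor that pairs with Jun, gave 130 and 250 on the naive wild-type arrays and 83.3 and 39.0 on the knockout ones. The groups did not overlap, but the difference of −1.42 did not pass (SE 0.34, adjusted p = 0.125). Without wild-type naive replicate 1 it was −1.85 (adjusted p = 0.0442) and without knockout naive replicate 1 it was −1.84 (adjusted p = 0.0496). Batf, the Jun partner of effector T cells, read 752 and 791 against 589 and 735, without overlap (−0.22, 95% interval −0.69 to 0.24, adjusted p = 0.75). Batf3, known for its role in dendritic cell development and in CD8 memory, was near or under the array medians at 78.6 and 37.0 against 17.5 and 105 (−0.15, adjusted p = 0.946).

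**Figure D1:**
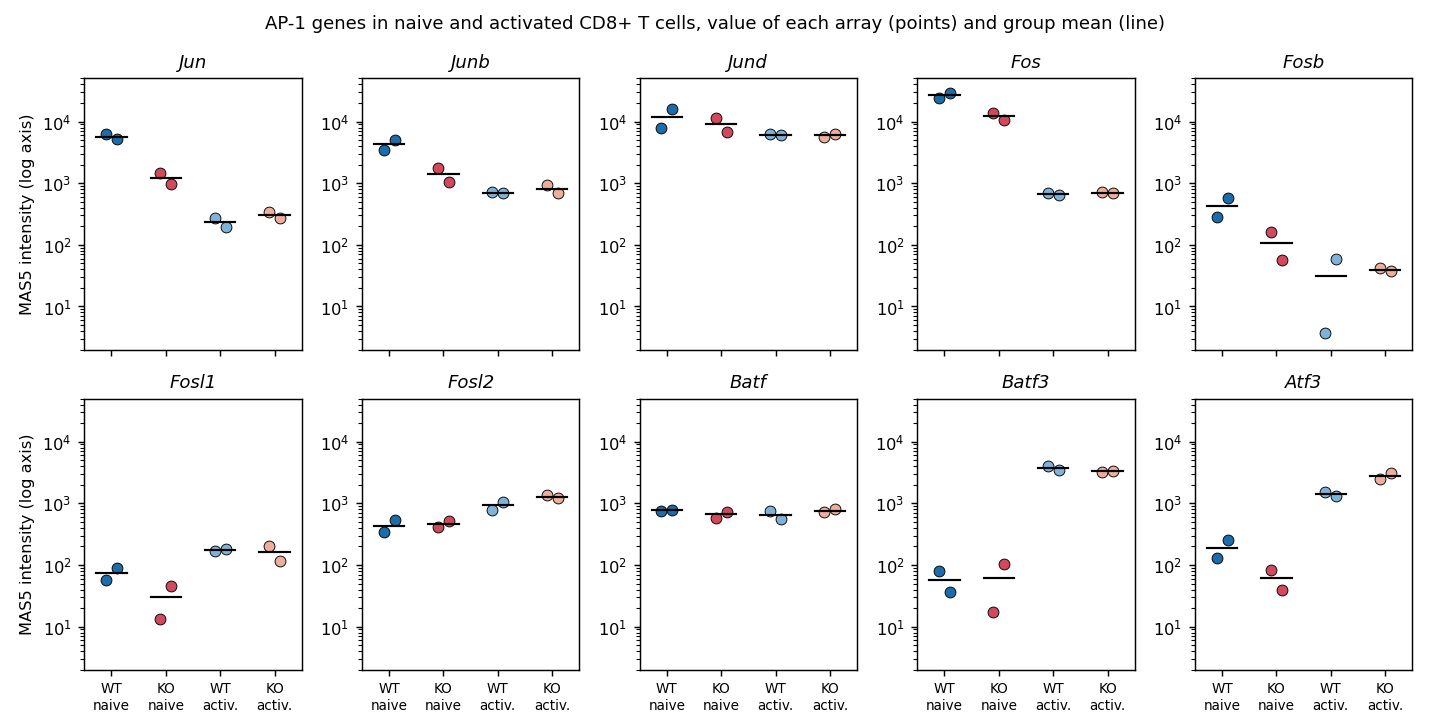
MAS5 intensity on a log axis (vertical) of the brightest tested probe set of each AP-1 gene in the 4 groups (WT, wild type; KO, Elf4 knockout; activ., activated), with 1 point per array and a line at the mean of 2. Jun, Junb and Fos step down from naive wild-type to naive knockout cells and are lower again in activated cells of either genotype, Batf stays between 566 and 807, and Batf3 and Atf3 are at or above 1313 in activated cells only.

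The 4 naive calls differed in how they held. The brighter Jun probe set was called in 19 of 21 alternatives, among them the fits without each of the 8 arrays, and was lost without a trend in the prior variance and when only the 4 naive arrays were fitted (adjusted p up to 0.125). Fos was called in 13 of 21, Junb in 11 and the dimmer Jun probe set in 10. These 3 calls were lost without knockout naive replicate 2, and without each of the 4 activated arrays, which only inform the spread. Without wild-type naive replicate 2 the calls of Junb and the dimmer Jun probe set were lost, and without wild-type naive replicate 1 the latter. Without knockout naive replicate 2, the array with the highest granulocyte sum (19596), the differences were −1.94 for the brighter Jun probe set (adjusted p = 0.0403), −1.18 for the dimmer one (0.141), −1.24 for Junb (0.151) and −0.93 for Fos (0.0926).

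**Figure D2:**
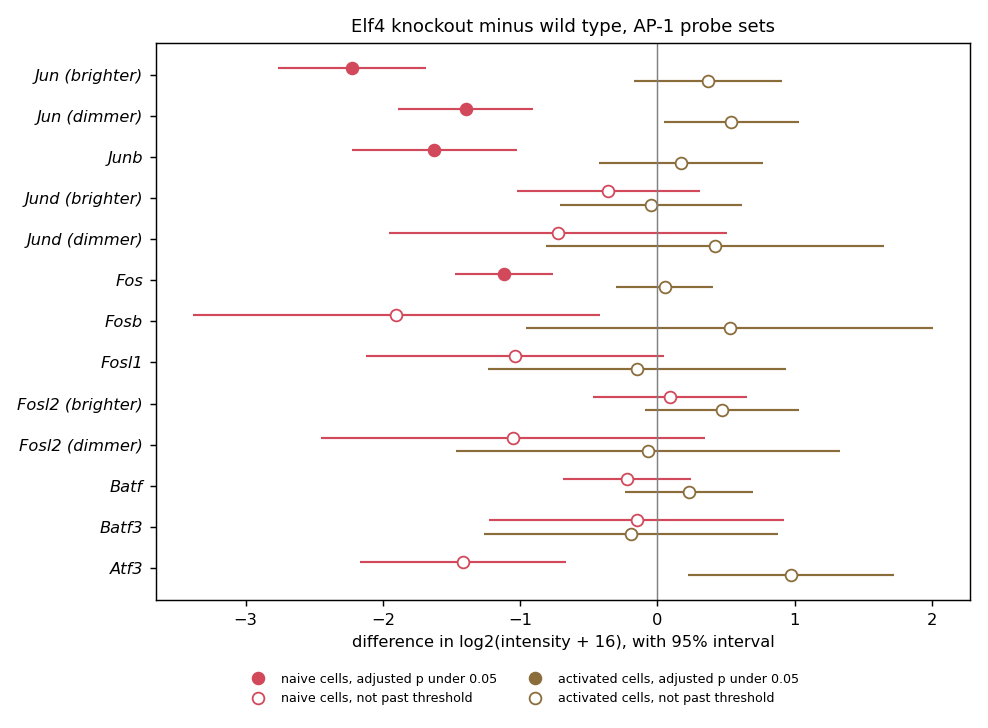
Knockout minus wild type in log2(intensity + 16) (horizontal) for the 13 tested AP-1 probe sets, in naive and in activated cells, with 95% intervals that are not adjusted for the number of probe sets. Filled points passed an adjusted p of 0.05: in naive cells they are both Jun probe sets (−2.23 and −1.40), Junb (−1.62) and Fos (−1.12), and in activated cells there are none.

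Some other immediate early genes were lower in naive knockout cells too. Of 34 such genes 13 fell and 0 rose, with a median of −1.04, where 0.249% of all tested probe sets fell and 0.314% rose. The list was drawn up with earlier results of these data known, so its count is a description and not an independent test. The calls with the smallest p were those of Rgs1, a regulator of G protein signalling (1163 and 1866 against 424 and 314, difference −1.97, adjusted p = 0.00615), and of Nr4a2, an orphan nuclear receptor (213 and 348 against 52.1 and 50.7, −2.10, adjusted p = 0.00615). Tnfaip3, an inhibitor of NF-κB signalling, fell by 1.88 (adjusted p = 0.00637) and Ppp1r15a, which restores translation after stress, by 2.33 (adjusted p = 0.008). The list was not uniform. Among genes named after their values were seen, Egr1, another early factor, gave −0.47 (adjusted p = 0.322) and Myc −0.35 (adjusted p = 0.398), while Nr4a3 gave 0.23 (adjusted p = 0.638).

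**Figure D3:**
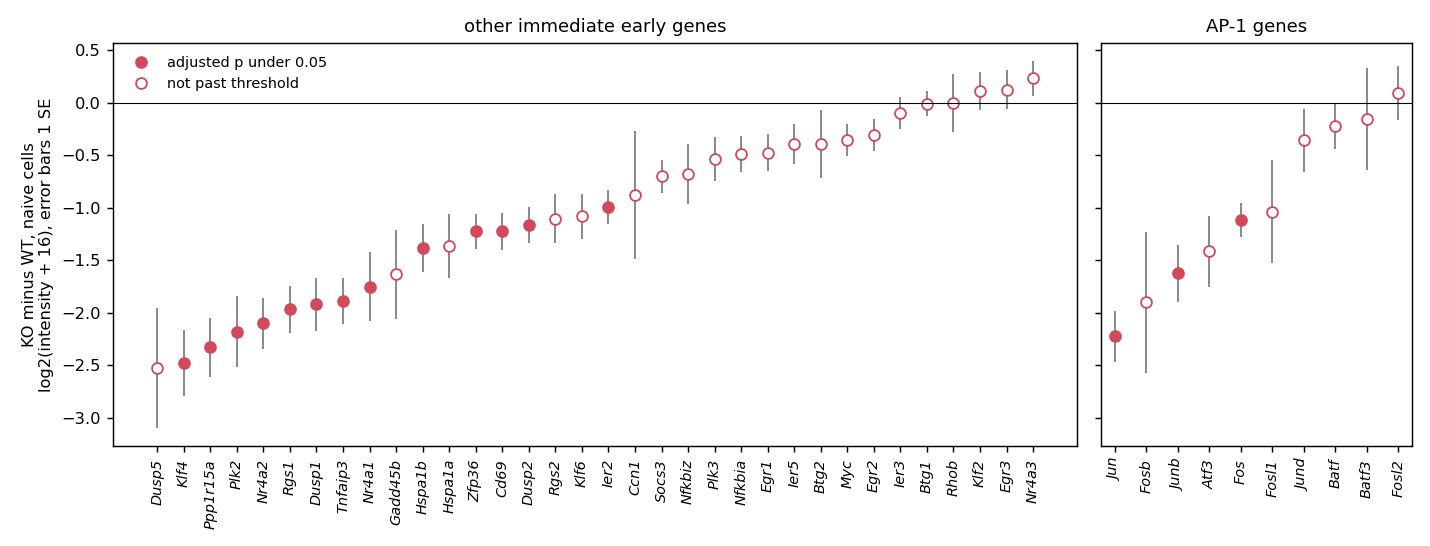
Knockout minus wild type in naive cells, in log2(intensity + 16) with bars of 1 SE (vertical), for 34 other immediate early genes and for the 10 AP-1 genes, each sorted by size. Filled points passed an adjusted p of 0.05, 13 in the larger group and 3 among the AP-1 genes, all below 0.

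Lists of genes that work with AP-1 gave few calls in naive cells, and their difference from the immediate early list was not tested. Of 28 other bZIP genes tested 1 fell, where 0.249% of all tested probe sets did, Cebpb, a C/EBP factor of inflammatory responses (870 and 816 against 278 and 198, −1.78, adjusted p = 0.0415), and the list's median was 0.27. Of 20 genes for upstream kinases and for the serum response factor complex 0 passed (median 0.16), the smallest p being that of Braf, a MAP kinase cascade kinase (0.58, adjusted p = 0.33). At an unadjusted p under 0.05, where 12.1% of all tested probe sets lay, 2 of the 20 did, near that share, and 6 of the 28 bZIP genes. Of 8 NFAT and IRF partner genes 0 passed (median 0.16, 1 at an unadjusted p under 0.05), with Nfatc1 at −0.12 (adjusted p = 0.804). Of 15 textbook AP-1 target genes 0 passed in limma and 5 did at an unadjusted p under 0.05 (median −0.06). Among them the cytokine genes Ifng (1017 and 2382 against 657 and 550) and Tnf (467 and 516 against 246 and 255) gave −1.35 and −0.93 (adjusted p = 0.0981 and 0.141).

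After 3.5 days of activation, where the same question applies to activated cells, 0 of the 13 AP-1 probe sets passed in limma, where 0.216% of all tested probe sets did. At an unadjusted p under 0.05 there were 2, the dimmer Jun probe set and Atf3, where 10.5% of all tested probe sets were, so this count is near the background. Estimates were above 0 for 9 of the 13, with a median of 0.23 beside −0.02 over all tested probe sets. The genotypes did not overlap for 4 of the 13, 3 higher and 1 lower in the knockout, where 47.0% of all tested probe sets did not overlap.

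The 3 genes that were lower in naive knockout cells had near values in activated cells. Jun read 269 and 198 in wild-type cells, against 342 and 269 with the knockout on its brighter probe set, which overlapped at their edge (0.37, 95% interval −0.17 to 0.91, adjusted p = 0.658). The dimmer one read 235 and 240 against 316 and 393, with no overlap and higher in the knockout (0.54, adjusted p = 0.423). Junb read 713 and 696 against 921 and 686 (0.17, 95% interval −0.43 to 0.77, adjusted p = 0.89). Fos read 703 and 641 against 715 and 681 (0.05, 95% interval −0.30 to 0.41, adjusted p = 0.948). Its interval excludes a fall as large as the −1.12 of naive cells.

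Atf3 was the member with the lowest p in activated cells. It read 1526 and 1313 in wild-type cells, against 2527 and 3095 with the knockout. Both knockout arrays lay above both wild-type arrays, at means of 1419 ± 151 and 2811 ± 401 (SD, n = 2), but the difference of 0.97 (SE 0.34) did not pass (adjusted p = 0.327). In a fit of the 4 activated arrays alone it did (adjusted p = 0.00891), a fit that called 734 probe sets where the fit of all arrays called 59. Fosl2, also without overlap, read 775 and 1070 against 1340 and 1201 on its brighter probe set (0.47, adjusted p = 0.566). Batf3 read 4018 and 3526 against 3272 and 3316, lower in both knockout arrays (−0.19, adjusted p = 0.936). Batf at 745 and 566 against 722 and 807 (0.23, adjusted p = 0.781) and Jund at 6186 and 6078 against 5639 and 6265 (−0.04, adjusted p = 0.981) overlapped.

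Among the partner lists in activated cells 1 of 20 kinase and serum response genes fell, the T cell kinase gene Prkcq (3029 and 2962 against 1599 and 1774, −0.82, adjusted p = 0.0365), which couples the T cell receptor to AP-1 and NF-κB. Of 34 other immediate early genes 2 rose, the cytokine signalling inhibitor Socs3 by 1.12 (adjusted p = 0.0245) and the survival gene Ier3 by 1.04 (adjusted p = 0.0256), and 1 fell, the quiescence factor Klf2, by 1.10 (adjusted p = 0.0464). None of 28 other bZIP genes, 8 NFAT and IRF partners and 15 AP-1 target genes passed in limma, where 0.216% of all tested probe sets did. At an unadjusted p under 0.05, where 10.5% of all tested probe sets lay, 4, 0 and 5 were found. So were 5 of the 20 kinase and serum response genes and 11 of the 34 immediate early genes. The counts for AP-1 targets, kinase and immediate early genes were above that share, which was not tested. The targets had a median of 0.41 beside −0.02 over all tested probe sets. The cytokine gene Il2 read 475 and 413 in wild-type cells, against 1080 and 984 with the knockout (1.19, adjusted p = 0.298).

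The family's make-up differed between activated and naive wild-type samples: Fos, Jun, Junb, Fosb and Jund were lower, and Batf3, Atf3 and Fosl2 higher, after 3.5 days than in unstimulated cells. Of the 13 probe sets 6 fell and 3 rose, against 21.8% and 17.4% of all tested probe sets, and their values did not overlap for 12 of the 13, against 68.7%. The median over all tested probe sets was itself −0.15 in wild-type and −0.16 in knockout cells. With quantile normalization these medians were −0.02 and −0.03, after centring arrays on their medians 0.04 and −0.04, and no member changed sign. Since the naive and activated arrays differ in sex and RNA integrity too, the differences below belong to the samples and not to activation alone.

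Fos showed the largest fall. From 24169 and 29039 in naive wild-type cells it went to 703 and 641 in activated ones, a 39.6-fold lower mean (−5.27, SE 0.16, adjusted p = 2.04e-08). In knockout cells it went from 13860 and 10744 to 715 and 681, a 17.6-fold lower mean (−4.10, SE 0.16, adjusted p = 3.34e-08). The activated arrays of both genotypes thus read 641 to 715, while the naive arrays differed by genotype. The level at which the activated cultures began was not measured.

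Jun also fell in both genotypes, here on its brighter probe set. The fall was 24.3-fold in wild-type cells (−4.52, SE 0.24, adjusted p = 2.55e-07) and 3.98-fold in knockout cells (−1.92, SE 0.24, adjusted p = 9.42e-05). On the dimmer probe set it was 7.35-fold (−2.80, adjusted p = 3.51e-06) and 1.86-fold (−0.86, adjusted p = 0.00931), the last of these lost without knockout naive replicate 1 and without knockout activated replicate 1. The order of the groups for Jun was therefore naive wild type, naive knockout, then the activated groups, whose order the genotype test did not settle.

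Junb fell 6.05-fold in wild-type cells (−2.54, SE 0.27, adjusted p = 3.03e-05) and 1.73-fold in knockout cells (−0.74, SE 0.27, adjusted p = 0.0477), the latter in 7 of 20 alternatives only. Jund fell by 0.87 in wild-type cells (adjusted p = 0.0399), a call kept in 8 of 20 alternatives, and gave −0.56 in knockout cells (adjusted p = 0.164). Fosb went from 284 and 575 to 3.77 and 58.2 in wild-type cells, under the array medians (−3.46, SE 0.67, adjusted p = 0.00188). In knockout cells, from 161 and 55.8 to 41.6 and 36.9, its difference of −1.03 did not pass (adjusted p = 0.251).

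Batf3 showed the largest rise of the family in wild-type cells. It went from 78.6 and 37.0 to 4018 and 3526 in wild-type (5.74, SE 0.49, adjusted p = 5.55e-06) and from 17.5 and 105 to 3272 and 3316 in knockout cells (5.70, SE 0.49, adjusted p = 5.25e-06). The naive values lie around the array medians of 70.7 to 86.2, so the size of the fold rests on dim signals. Atf3 rose from 130 and 250 to 1526 and 1313 in wild-type (2.86, SE 0.34, adjusted p = 6.41e-05) and from 83.3 and 39.0 to 2527 and 3095 in knockout cells (5.25, SE 0.34, adjusted p = 7.77e-07). Its naive knockout values lie around the array medians too, so the size of the knockout rise rests on dim signals.

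The genes of the Fos-related antigens were higher in activated cells where they passed. Fosl2 rose from 342 and 531 to 775 and 1070 in wild-type (1.07, SE 0.25, adjusted p = 0.0065) and from 410 and 509 to 1340 and 1201 in knockout cells (1.44, SE 0.25, adjusted p = 0.000931), and the wild-type call was lost without wild-type activated replicate 2. Its dimmer probe set went from 28.5 and 178 to 197 and 247 in wild-type cells (1.35, adjusted p = 0.119) and rose from 16.3 and 46.5 to 262 and 167 in knockout cells (2.33, adjusted p = 0.0124). Fosl1 went from 56.4 and 89.4 to 170 and 179 in wild-type cells, which did not pass (1.12, adjusted p = 0.0959), and from 13.1 and 46.3 to 204 and 118 in knockout cells, which did (2.01, SE 0.49, adjusted p = 0.0069). The naive knockout values of Fosl1 and of the dimmer Fosl2 probe set were under the array medians, so the sizes of these rises rest on dim signals. The untested Fosl1 probe set read 35.0 and 22.4 in naive against 46.6 and 52.9 in activated wild-type cells. In knockout cells it read 91.7 and 35.8 against 56.5 and 3.85, not a rise. Without knockout naive replicate 1 or knockout activated replicate 1 the Fosl1 call and that of the dimmer Fosl2 probe set in knockout cells were lost. Batf stood apart from Batf3 with 752 and 791 before and 745 and 566 after in wild-type cells (−0.24, 95% interval −0.71 to 0.22, adjusted p = 0.401), and 589 and 735 before and 722 and 807 after in knockout cells (0.21, 95% interval −0.26 to 0.68, adjusted p = 0.464).

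**Figure D4:**
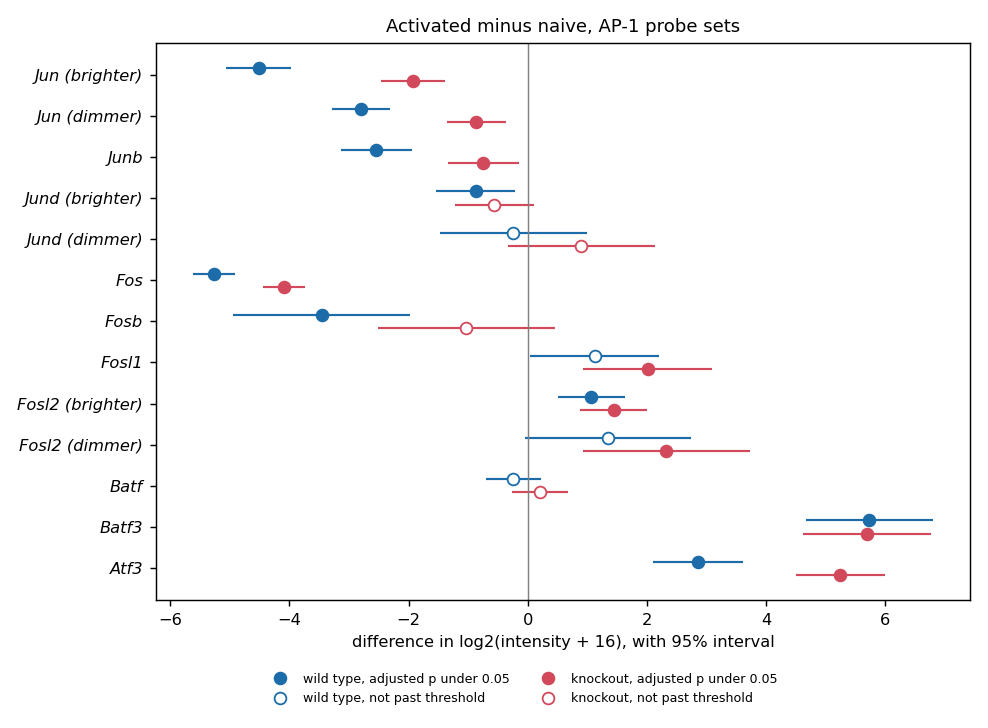
Activated minus naive in log2(intensity + 16) (horizontal) for the 13 tested AP-1 probe sets in wild-type and in knockout cells, with unadjusted 95% intervals. Filled points passed an adjusted p of 0.05: Fos and Jun lie to the left of 0 and Batf3 and Atf3 to the right in both genotypes, while Batf is open in both.

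In knockout cells 4 of the 13 probe sets fell on activation (Fos, Junb and both of Jun) and 5 rose (Batf3, Atf3, Fosl1 and both of Fosl2), against 23.5% and 18.2% of all tested probe sets. Values did not overlap for 11 of the 13, against 71.5%. With the Actb ratio, which differs between the states, as a covariate, 1 member probe set was called in wild-type cells (Fos, −5.37, adjusted p = 0.0109) and 0 in knockout cells, and over all probe sets 484 and 0 calls were made. Other estimates moved both ways in that fit: Jun was at −3.70 in wild-type cells (adjusted p = 0.0558) and −0.61 in knockout cells (adjusted p = 0.915), and in knockout cells Fos was at −4.27 (adjusted p = 0.212) and Batf3 at 6.93 (adjusted p = 0.446).

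Among known partners and targets, calls on activation were made in both genotypes. Of 15 textbook AP-1 targets 9 rose in wild-type cells and 0 fell, with Csf2 going from 23.5 and 19.4 to 1827 and 2430 (5.83, adjusted p = 4.14e-07, from naive values under the array medians, so that the fold rests on dim signals) and Ifng from 1017 and 2382 to 38417 and 32820 (4.50, adjusted p = 1.01e-06). In knockout cells 10 rose and 1 fell, the matrix protease gene Mmp9, named because it was the exception. Mmp9 went from 112 and 203 to 9.67 and 57.0 (−1.95, adjusted p = 0.0249). Its activated values lay under the array medians, so this fall rests on dim signals too. The list medians were 1.69 and 2.35. Of all tested probe sets 17.4% rose and 21.8% fell in wild-type cells, and 18.2% and 23.5% did in knockout cells. Irf4, which encodes the partner of Batf, rose from 165 and 331 to 7153 and 7268 in wild-type cells (4.85, adjusted p = 5.21e-07) and by 4.75 in knockout cells (adjusted p = 5.4e-07), while Nfatc1 fell in both genotypes (−1.90 and −2.02, adjusted p = 2.43e-06 and 1.48e-06). Of the 8 NFAT and IRF genes 2 rose and 4 fell in each genotype, the rises being near the shares of all tested probe sets.

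Of 28 other bZIP genes 7 rose and 6 fell in wild-type and 8 and 7 in knockout cells, near the shares of all tested probe sets (17.4% and 21.8%, and 18.2% and 23.5%). Crem, the cyclic AMP response modulator, rose by 4.66 and 5.18 (adjusted p = 5.8e-08 and 3.02e-08) and Xbp1, a factor of the secretory pathway, by 2.43 and 2.63 (adjusted p = 1.06e-07 and 5.95e-08). Dbp, a circadian output factor, fell in both genotypes (−3.88 and −3.93, adjusted p = 3.19e-07 and 2.79e-07). Of 20 kinase and serum response genes 5 rose and 8 fell in wild-type and 4 and 8 in knockout cells. Elk4, a ternary complex factor that acts with serum response factor at the Fos promoter, fell in both genotypes (−1.69 and −2.01, adjusted p = 5.14e-06 and 1.36e-06). Of 34 other immediate early genes 11 rose and 17 fell in wild-type cells, with a median of −1.05 beside −0.15 over all tested probe sets, and 14 rose and 10 fell in knockout cells, with a median of 0.16 beside −0.16.

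Whether the genotype effect itself differed between the states was tested as an interaction. Of the 13 probe sets 1 passed, the brighter of Jun, against 0.0585% of all tested probe sets. Its genotype difference was −2.23 in naive and 0.37 in activated cells, so that the effect was 2.60 higher in the activated samples (SE 0.35, 95% interval 1.83 to 3.36, adjusted p = 0.0335). The states also differed in sex and RNA integrity, and naive knockout arrays held more granulocyte signal, so activation alone was not tested. This call was kept in 11 of 19 alternatives, and was lost without knockout naive replicate 2 and without each of the activated arrays. The dimmer Jun probe set gave 1.93 (SE 0.31, adjusted p = 0.072), Fos 1.17 (SE 0.23, adjusted p = 0.109), Atf3 2.39 (SE 0.48, adjusted p = 0.123) and Junb 1.80 (SE 0.38, adjusted p = 0.134), none of which passed. Their unadjusted 95% intervals lay above 0, as for Fos (0.67 to 1.67) and Atf3 (1.33 to 3.45). The size of the Atf3 value rests in part on dim naive knockout signals. Batf gave 0.45 (95% interval −0.21 to 1.11) and Batf3 −0.04 (−1.56 to 1.48). Of the 34 other immediate early genes 2 passed upward, Socs3 with 1.82 (adjusted p = 0.0225) and Tnfaip3 with 2.19 (adjusted p = 0.0471).

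As a description of these 8 arrays, the genes outside the family whose log2 values were most like those of Jun were Pabpc1, a poly(A)-binding protein gene (Pearson r = 0.992), Ppp1r15a (0.989) and 2610005L07Rik (0.989). For Fos they were Sys1 (0.998), Shisa5 (0.998) and Ndufa3 (0.997). Since the arrays fall into naive and activated ones, 1052 and 3254 of 22862 other named probe sets had an r above 0.9 with Jun and Fos. The genes most like Jun were picked on these same arrays, so a drop between the naive genotypes follows largely from that choice. Ppp1r15a read 5514 and 6412 in naive wild-type cells, against 1436 and 954 with the knockout. Pabpc1 read 2441 and 2252 against 1322 and 1070, and 2610005L07Rik 5677 and 6370 against 3727 and 3135. For Batf, which varied little, the nearest were 4930456A14Rik (0.974), an Elk4 probe set (0.96) and Duox1 (0.959), all dim at 5.53 to 125.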

How the data were processed

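RNA from 8 CD8+ T cell samples, 2 in each of 4 groups, was measured on an Affymetrix mouse array of 45101 probe sets. The authors deposited one MAS5 intensity per probe set and array, per the submitters' processing notes, on a linear scale. The 2% trimmed mean of every array was 500.003 to 500.004, so global scaling came before any step here and a shift common to all probe sets cannot be seen. Genes were named from the platform annotation, updated through Entrez numbers to the GRCm38.p6 table. A total of 64 control probe sets was left out, and 27348 probe sets at or above their array's median on at least 2 of 8 arrays were tested. Log2(intensity + 16) was fitted in limma 3.58.1 (R 4.3.3) with 4 group means and 5 two-sided contrasts, 4 residual degrees of freedom, a trended prior (6.67 degrees of freedom) and Benjamini-Hochberg adjustment, and the scripts were tested on simulated data. Replicates correlated at 0.94 to 0.959 on the log2 scale. The precision is limited by the number of arrays. All 10 genes were named, with up to 4 genes of smallest p from each pathway list and the 3 genes most like Jun, Fos and Batf. The members and lists were chosen with earlier results of these data known. Alternatives changed the offset, scaling, filter, prior, arrays, weights, replicate block and RNA integrity covariate.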

Additional observations from a re-analysis of the deposited data

Results flagged for a closer look

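The genotype difference of Jun was called different between naive and activated cells on 1 of its 2 probe sets. On the brighter Jun probe set the knockout was lower by 4.65-fold in naive cells (1456 and 979 against 6164 and 5166), while activated cells read 342 and 269 against 269 and 198. The difference between these genotype effects, tested directly in limma, was 2.60 on the log2 scale (SE 0.35, adjusted p = 0.0335). Both naive knockout arrays were below both naive wild-type arrays. The dimmer Jun probe set gave 1.93 in the same limma test and did not pass (adjusted p = 0.072). The call was kept in 11 of 19 alternatives, and was lost with no offset, without a trend and with the Actb covariate. Naive knockout arrays also held more granulocyte signal, and the states differed in sex and RNA integrity, so the knockout alone was not tested.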

How the results depend on the processing

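Across 65 results and 1280 alternative values, 1156 kept direction and side of the threshold, 86 lost the call, 10 gained one and 28 changed sign, all 28 among results that had not passed. The cause of these changes was not tested. Counts below need not hold the same probe sets. In naive cells, where 4 AP-1 probe sets were called lower, 0 were called without a trend or with the 4 naive arrays alone, 2 with array weights and 1 with an Actb ratio covariate, and 1 to 5 when single arrays were left out (Atf3 among them without replicate 1 of either genotype, 1 without knockout naive replicate 2 or any activated array, 2 without wild-type naive replicate 2). All tested probe sets then gave 27 to 235 calls instead of 154. In activated cells 0 became 1 with the 4 activated arrays alone, and stayed 0 to 0 with single arrays left out. On activation in wild-type cells there were 9 calls, 7 to 9 without single arrays and 1 with the Actb covariate. In knockout cells there were 9, 5 to 10 without single arrays (5 without knockout naive replicate 1 or knockout activated replicate 1, while the counts of 10 added Jund) and 0 with the covariate. The 1 interaction became 0 with no offset, without a trend and with that covariate, and 0 to 2 without single arrays. With the replicate number as a block the counts were 4, 0, 8, 8 and 1. Same-numbered replicates did not deviate together (correlations of -0.167 to 0.0685), so the numbers were not taken as pairs. A crossed pairing of the naive groups, chosen after seeing the data, gave 4. Signs changed with the Actb covariate for Fosl1 (0.36) and Batf3 (0.15) by genotype in activated cells, the dimmer Jund on wild-type activation (0.82), Batf on knockout activation (-0.41) and the interactions of Jund (-0.43) and Batf3 (0.43, and 0.14 with no offset). Leaving out single arrays, values spanned 0 in naive cells for Batf3 (-1.08 to 0.78), the dimmer Fosl2 (-2.11 to 0.012), the brighter Fosl2 (-0.21 to 0.40) and Jund (-0.88 to 0.16). In activated cells they did for Fos (-0.010 to 0.12), Fosb (-0.43 to 1.48), Fosl1 (-0.50 to 0.21), the dimmer Fosl2 (-0.37 to 0.23), Junb (-0.038 to 0.38) and Jund (-0.12 to 0.031). On wild-type activation they did for the dimmer Jund (-0.60 to 0.11), and as interactions for Batf3 (-0.97 to 0.89), the dimmer Fosl2 (-0.082 to 2.04) and Jund (-0.21 to 0.83). Signals near the array medians of 64.1 to 86.2, as for Batf3 in naive cells and the dimmer Fosl2 and Jund probe sets, leave the least precision.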
